A study of Mus musculus with 8 samples.

Results

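Autophagy and mitophagy genes were examined in brown adipose tissue (BAT) of mice with cancer-associated cachexia (CAC). The members are 40 genes taken by symbol from the deposited count table, which lists 56953 genes, and all 40 were found there and passed the filter on low counts that left 9876 genes for testing. All mice were wild-type C57BL/6J, 8 to 10 weeks old when injected, and were housed at 21.0 °C with free access to food. The 4 CAC mice had received 3000000 Lewis Lung Carcinoma (LLC) cells, a mouse lung tumour line, under the skin of the right flank, and the 4 control (CTR) mice had received PBS alone. BAT RNA of each mouse gave 1 library. The labels allow either sex without naming it per mouse. In all 8 libraries the Y-linked Ddx3y was between 62.2 and 72.9 CPM (counts scaled to library size) and Xist between 0 and 0.293 CPM. By these values all 8 libraries came from male mice.

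Autophagy encloses cytoplasm in a membrane sac, the autophagosome, and delivers it to the lysosome. The ULK1 kinase complex starts the process, a class III phosphatidylinositol 3-kinase marks the growing membrane with PI3P, and 2 ubiquitin-like conjugation systems attach small modifiers of the LC3 and GABARAP kind (the Atg8 family) to it. Cargo receptors such as p62 bind both the cargo and these modifiers. Mitophagy is the same route applied to mitochondria, either through the kinase PINK1 and ubiquitin or through receptors that sit in the outer mitochondrial membrane, such as BNIP3, NIX and FUNDC1. In brown fat, which is dense in mitochondria, this clearance is known for its part in the loss of mitochondria when thermogenic stimulation ends. Much of the pathway is controlled on existing proteins, so that mRNA levels give no measure of autophagic flux.

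Of the 40 members, Bnip3 alone passed the test, at an adjusted p of 0.0398 from the edgeR quasi-likelihood fit (Benjamini-Hochberg over all tested genes), and it was higher in CAC. The same test called 92 of the 9876 genes (0.932%), 73 of them higher in CAC (0.739%). At an unadjusted edgeR p under 0.05 stood 6 of 40 members (15%), against 12.9% of all tested genes. Bnip3, Atg101, Optn and Atg14 lay above 0 on the log2 scale in that group, beside 7.01% of all genes, and Ulk1 and Atg10 lay below 0, beside 5.93%. The share of members past this point was therefore near that of all genes. In 4 of 40 members (10%) the CPM of the 4 CAC libraries lay clear of the 4 CTR libraries, each time above them (Bnip3, Atg101, Optn and Atg14). Among all tested genes the groups were separate in 7.04%, and separate with CAC higher in 3.64%.

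As a group, the members lay close to all genes. Their median log2 fold change was 0.06 (28 above 0 and 12 below) beside a median of 0.00 over all tested genes, and their median size of change regardless of sign was 0.14 beside 0.17. For 22 of the 40 (55%) the 95% confidence interval of the log2 fold change lay between -0.5 and 0.5, beside 35.2% of all genes. The median deviation of the members from the CTR mean ran from -0.005 to 0.047 on the log2 scale over the CTR libraries and from 0.020 to 0.116 over the CAC libraries, so that CAC library 3 lay inside the CTR range. The CPM summed over the members was 1880 to 2002 in CTR and 1975 to 2146 in CAC, and overlapped likewise.

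**Figure D1:**
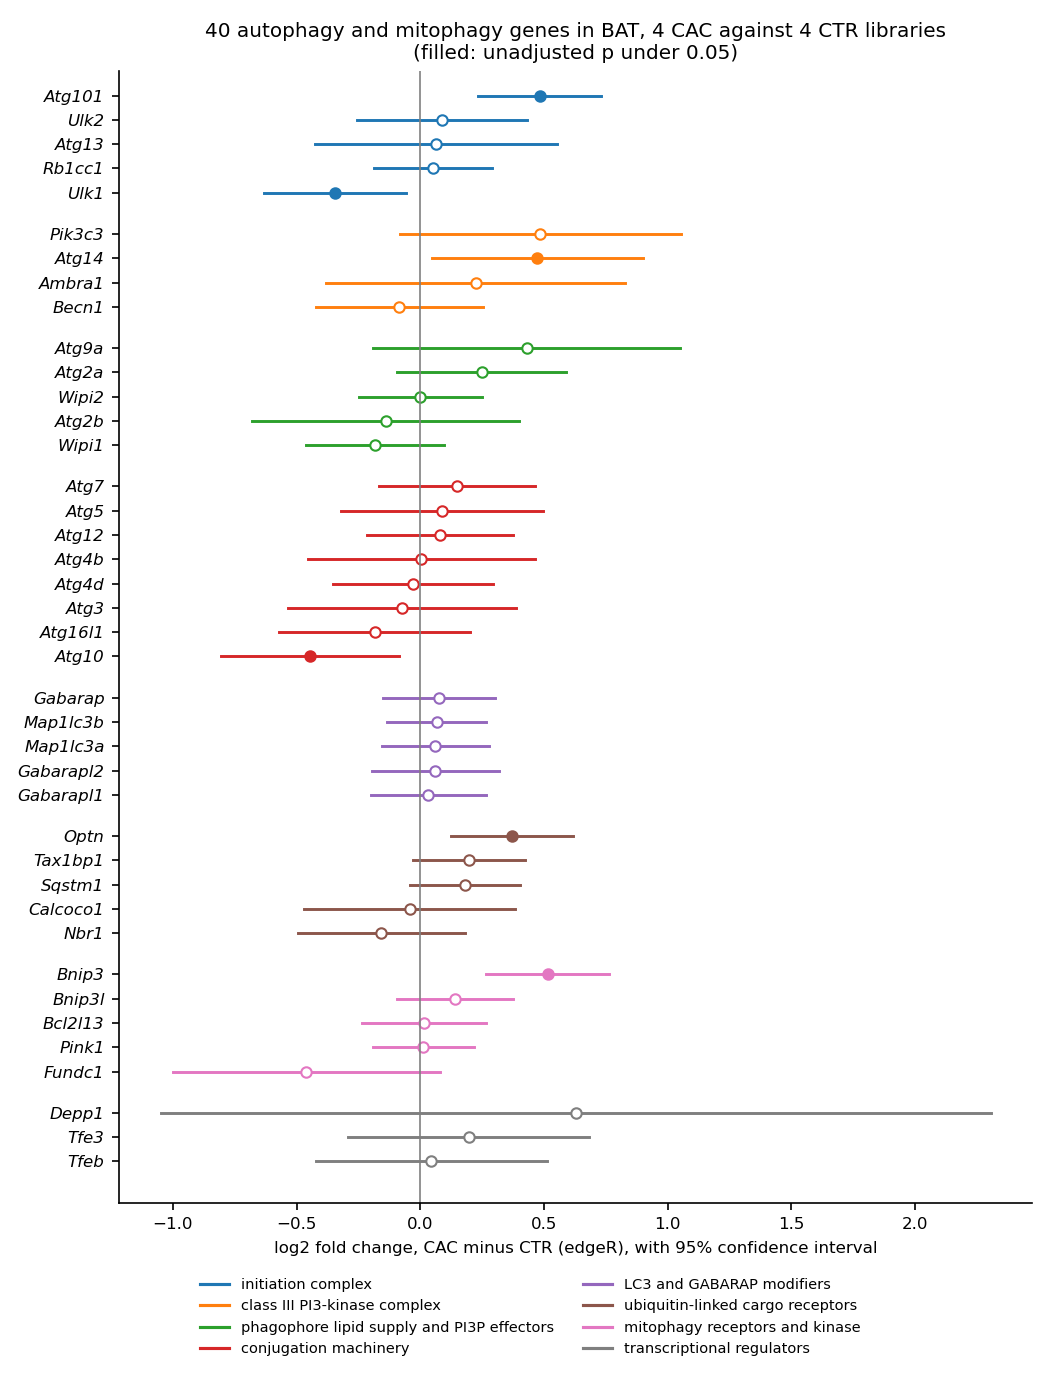
Log2 fold change of CAC minus CTR from edgeR for the 40 members, grouped by role, with 95% confidence intervals from 4 libraries a group; filled points have an unadjusted p under 0.05. The 5 LC3 and GABARAP modifiers sit between 0.03 and 0.08, Bnip3 is at 0.52, and the interval of Depp1 spans from -1.05 to 2.31.

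The initiation complex comprises the kinases ULK1 and ULK2, the scaffold FIP200 (Rb1cc1), ATG13 and its partner ATG101, which stabilises ATG13. Atg101 (ENSMUSG00000037204.8, chr15:101284272-101290945 on the plus strand of GRCm38) was at 57.9, 53.8, 54.0 and 66.6 CPM in CTR libraries 1 to 4 and at 92.4, 86.7, 75.9 and 72.2 CPM in CAC libraries 1 to 4. Every CAC library was above every CTR library. Its log2 fold change was 0.48 (SE 0.12, 95% interval 0.23 to 0.73), with an edgeR adjusted p of 0.0559, just short of the threshold. The adjusted p fell under 0.05 when genes of any count were kept (0.0298) and without CTR replicate 4 (0.0372) or CAC replicate 4 (0.0461). No annotated gene overlaps Atg101, and its counts were whole numbers in all libraries, 130 to 302 of them.

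Ulk1, whose kinase activity is set by mTORC1 and AMPK, was at 40.7, 41.3, 36.9 and 35.1 CPM in CTR libraries 1 to 4. In CAC it was at 25.4, 35.1, 33.7 and 26.5 CPM. CAC library 2 reached the lowest CTR library and the other 3 lay below it. The log2 fold change of Ulk1 was -0.35 (SE 0.14, interval -0.63 to -0.06, edgeR adjusted p = 0.279). Thus, within this complex, Atg101 and Ulk1 pointed in opposite directions, and Ulk2, Atg13 and Rb1cc1 were close to 0 at 0.09, 0.06 and 0.05. Ulk2 ranged over 14.4 to 19.5 CPM and Rb1cc1 over 51.9 to 63.1 CPM in the 8 libraries.

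The class III kinase complex joins the lipid kinase VPS34 (Pik3c3) to beclin 1 (Becn1), to ATG14, which directs it to the site of autophagosome formation, and to the regulator AMBRA1. Atg14 was at 10.4, 10.7, 7.47 and 11.7 CPM in CTR libraries 1 to 4 and at 13.0, 18.6, 12.9 and 13.2 CPM in CAC libraries 1 to 4. The groups did not overlap, on 18 to 53 counts a library. Its log2 fold change was 0.47 (SE 0.20, interval 0.05 to 0.90, edgeR adjusted p = 0.322). Pik3c3 had a similar log2 fold change, 0.48, on only 10 to 33 counts a library, and its interval (-0.08 to 1.05) includes 0. Leaving out 1 library moved the Pik3c3 value over 0.30 to 0.66, with an unadjusted edgeR p under 0.05 in 1 of the 8 omissions. Ambra1 stood at 0.22 and Becn1 at -0.08. Of the 75-base stretches of Becn1, 33.6% also lie in the antisense gene Cntd1, at 26 to 62.5 counts.

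The next group supplies lipid to the growing membrane or reads PI3P on it. ATG2A and ATG2B carry lipid, ATG9A is a transmembrane lipid scramblase, and WIPI1 and WIPI2 bind PI3P. None of the 5 had an unadjusted edgeR p under 0.05. Their log2 fold changes were 0.43 for Atg9a, 0.25 for Atg2a, 0.00 for Wipi2, -0.14 for Atg2b and -0.18 for Wipi1. Wipi2 was measured most deeply of them, at 157.5 to 481.9 counts, and its interval was -0.25 to 0.25. Atg2a was at 25.6 to 28.8 CPM in CTR, whereas CAC library 1 was at 46.0 CPM and the lowest CAC library at 26.1 CPM. Atg9a had 8.5 to 25.5 counts, and 28.7% of its 75-base stretches also lie in Gm29253 on the same strand. Leaving out 1 library gave log2 fold changes of 0.315 to 0.718 for Atg9a and 0.076 to 0.360 for Atg2a. Each of these genes had an unadjusted edgeR p under 0.05 in 1 of the 8 omissions.

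The conjugation machinery loads the modifiers onto lipid: ATG7 is the E1-like enzyme, ATG3 and ATG10 the E2-like enzymes, ATG12, ATG5 and ATG16L1 form the E3-like complex, and ATG4B and ATG4D are the proteases that trim and recycle the modifiers. Atg10, whose product joins ATG12 to ATG5, was at 27.0, 27.4, 28.2 and 20.3 CPM in CTR libraries 1 to 4. CAC libraries 1 to 4 were at 18.9, 13.8, 17.9 and 23.4 CPM. CTR library 4 fell among the CAC libraries, so the groups overlapped. The log2 fold change of Atg10 was -0.44 (SE 0.17, interval -0.80 to -0.08, edgeR adjusted p = 0.264). For the other 7 genes of the machinery the value lay between -0.18 (Atg16l1) and 0.15 (Atg7), with Atg5 at 0.09, Atg12 at 0.08, Atg4b at 0.00, Atg4d at -0.03 and Atg3 at -0.07. Atg12 and Atg7 were bounded most closely, with intervals of -0.21 to 0.38 and -0.17 to 0.46.

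The LC3 and GABARAP modifiers, the proteins that coat the autophagosome membrane, were the flattest group. All 5 log2 fold changes lay between 0.03 and 0.08, and all 5 intervals lay between -0.20 and 0.32. Map1lc3b, the source of the LC3B followed in immunoblots of autophagy, was at 222, 261, 254 and 248 CPM in CTR libraries 1 to 4 and at 282, 241, 244 and 265 CPM in CAC libraries 1 to 4. Its log2 fold change was 0.07 (SE 0.10, interval -0.13 to 0.27, edgeR adjusted p = 0.838), and CAC libraries 2 and 3 were below CTR library 2.

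Map1lc3a was at 166, 175, 164 and 176 CPM in CTR libraries 1 to 4 and at 181, 206, 152 and 175 CPM in CAC libraries 1 to 4, a log2 fold change of 0.06 (interval -0.16 to 0.28). CAC library 3 was the lowest of all 8 and CAC library 2 the highest. Gabarap was at 69.5, 76.2, 72.2 and 70.6 CPM in CTR libraries 1 to 4 and at 70.3, 77.6, 70.9 and 85.1 CPM in CAC libraries 1 to 4. The groups overlapped, and the log2 fold change was 0.08 (interval -0.15 to 0.30). Gabarapl1, a target of FoxO factors in other tissues, was at 86.0, 75.6, 91.3 and 86.9 CPM in CTR libraries 1 to 4, and at 97.3, 78.7, 80.3 and 91.3 CPM in CAC libraries 1 to 4. This left a log2 fold change of 0.03 (interval -0.20 to 0.27). Gabarapl2 was at 30.2, 36.8, 35.7 and 34.2 CPM in CTR libraries 1 to 4 and at 35.7, 35.6, 36.0 and 35.6 CPM in CAC libraries 1 to 4, within 1 CPM of each other in CAC. Its log2 fold change was 0.06 (interval -0.20 to 0.32). The adjusted edgeR p of these 4 genes ran from 0.837 to 0.943. Gabarapl2 holds fractions of reads in all 8 libraries and shares 6.59% of its 75-base stretches with the pseudogene Gm3724, and Gabarapl1 shares 20.5% with the antisense gene 1700101I11Rik.

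**Figure D2:**
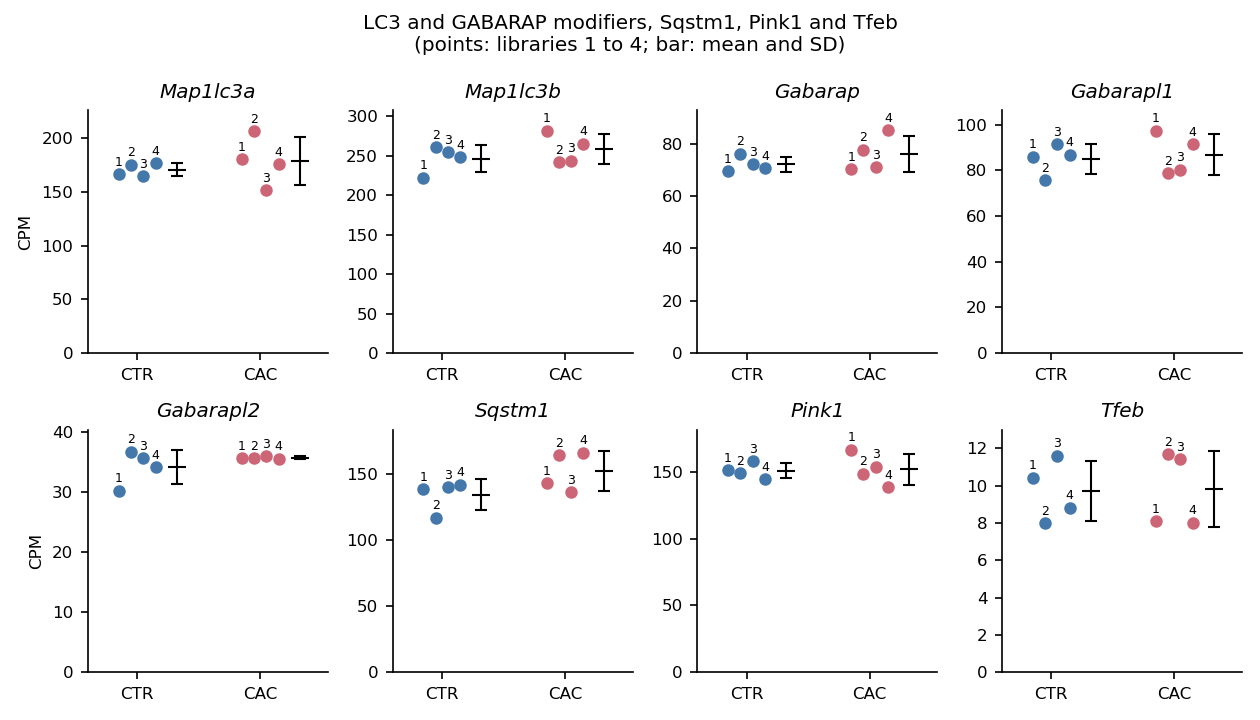
CPM in each of the 8 libraries for the 5 LC3 and GABARAP modifiers, Sqstm1, Pink1 and Tfeb, with the mean and SD of 4 libraries a group; each vertical axis starts at 0. The CTR and CAC points overlap in all 8 panels, and Sqstm1 has its 2 highest libraries in CAC (164 and 166 CPM).

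The next group holds cargo receptors, which tie cargo, often but not always tagged with ubiquitin, to the modifiers. Optn encodes optineurin, a receptor of ubiquitin-coated mitochondria and bacteria that TBK1 activates. It was at 38.9, 47.4, 47.7 and 39.7 CPM in CTR libraries 1 to 4 and at 56.8, 56.4, 52.2 and 59.3 CPM in CAC libraries 1 to 4, so every CAC library was above every CTR library. The log2 fold change of Optn was 0.37 (SE 0.12, interval 0.13 to 0.62, edgeR adjusted p = 0.151). Under the 8 omissions of a library it stayed between 0.32 and 0.42, with adjusted p of 0.148 to 0.374, and with a muscle or an erythroid marker level as a covariate, chosen after seeing the data, it was 0.22 or 0.27 (edgeR adjusted p of 0.738 and 0.770).

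Sqstm1 encodes p62, whose protein accumulates when autophagic degradation is blocked. CTR libraries 1 to 4 were at 138, 117, 140 and 142 CPM, and CAC libraries 1 to 4 at 143, 164, 136 and 166 CPM. CAC library 3 lay inside the CTR range. The log2 fold change was 0.18 (SE 0.11, interval -0.04 to 0.40, edgeR adjusted p = 0.500). Tax1bp1 was similar at 0.20 (interval -0.03 to 0.42), while Calcoco1 and Nbr1 were at -0.04 and -0.16. Calcoco1 varied most within CTR, from 60.5 to 119.9 CPM. Of the Sqstm1 sequence, 14.6% of 75-base stretches also lie in the antisense gene Mrnip, which had at most 9.5 counts.

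Among the mitophagy genes, Bnip3 differed between the groups and its relatives in the outer mitochondrial membrane did not pass the test. BNIP3 is a receptor that binds LC3 directly, without ubiquitin, and its gene is a target of hypoxia-inducible factor and of FoxO3 in muscle. Bnip3 (ENSMUSG00000078566.9, chr7:138890836-138909519 on the minus strand of GRCm38) was at 97.2, 82.6, 105 and 96.6 CPM in CTR libraries 1 to 4, a mean of 95.4 ± 9.48 (SD, n = 4). CAC libraries 1 to 4 were at 118, 120, 142 and 162 CPM, a mean of 135.7 ± 21.0 (SD, n = 4). All CAC libraries were above all CTR libraries, on 218.5 to 485.8 counts. The log2 fold change was 0.52 (SE 0.12, interval 0.27 to 0.76), a 1.43-fold difference, with an edgeR adjusted p of 0.0398. Bnip3l, which encodes the paralog NIX, was at 61.9, 57.0, 67.2 and 60.9 CPM in CTR libraries 1 to 4 and at 71.9, 60.6, 72.7 and 66.2 CPM in CAC libraries 1 to 4. Its log2 fold change was 0.14 (interval -0.09 to 0.38), and the groups overlapped. The log2 ratio of Bnip3 to Bnip3l was 0.53 to 0.67 in the CTR libraries and 0.71 to 1.29 in the CAC libraries, a difference between the 2 genes that was not tested.

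The Bnip3 call sat close to the threshold. It was lost without CTR replicate 1 (adjusted p = 0.112), CTR replicate 2 (0.147), CTR replicate 4 (0.0602), CAC replicate 3 (0.106) or CAC replicate 4 (0.133), although the log2 fold change stayed between 0.42 and 0.58 in all 8 omissions. The edgeR test with upper quartile normalization (adjusted p = 0.0539) and limma-trend (0.0507) also ended the call. Reads of Bnip3 are not all unique to it. The gene Gm45507 lies on the opposite strand over Bnip3 and holds 12.9% of its 75-base stretches. The strand setting of the counting is not given in the sources used here. Reads from these shared stretches therefore cannot be told apart between the 2 genes. Gm45507 itself was at 81.3, 71.1, 88.4 and 82.7 CPM in CTR libraries 1 to 4 and at 97.3, 108.5, 113.1 and 130.4 CPM in CAC libraries 1 to 4, with a log2 fold change of 0.48 and an edgeR adjusted p of 0.0488. The counts of Bnip3 held fractions of reads in all 8 libraries, and 20.4% of its 75-base stretches lie in Gm55330, a non-coding gene at 8.4 to 46.4 counts whose log2 fold change was 0.14 (adjusted p = 0.892).

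Pink1, the kinase that accumulates on damaged mitochondria, was at 151, 149, 158 and 144 CPM in CTR libraries 1 to 4 and at 167, 148, 154 and 138 CPM in CAC libraries 1 to 4. CAC held both the highest and the lowest library. The log2 fold change of 0.01 (SE 0.10, interval -0.19 to 0.22, edgeR adjusted p = 0.976) rested on 279 to 654 counts a library. Bcl2l13, another receptor of the outer membrane, was likewise at 0.01 (interval -0.24 to 0.26). Fundc1, a receptor tied to hypoxia whose LC3 binding is set by phosphorylation, was at 6.23 to 10.1 CPM in CTR and 4.10 to 7.98 CPM in CAC. Its log2 fold change of -0.46 on 11 to 39 counts had an interval from -0.999 to 0.08. Leaving out 1 library moved the Fundc1 value over -0.58 to -0.26. In 1 of the 18 alternatives, a marker level as a covariate, it was above 0, at 0.12.

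**Figure D3:**
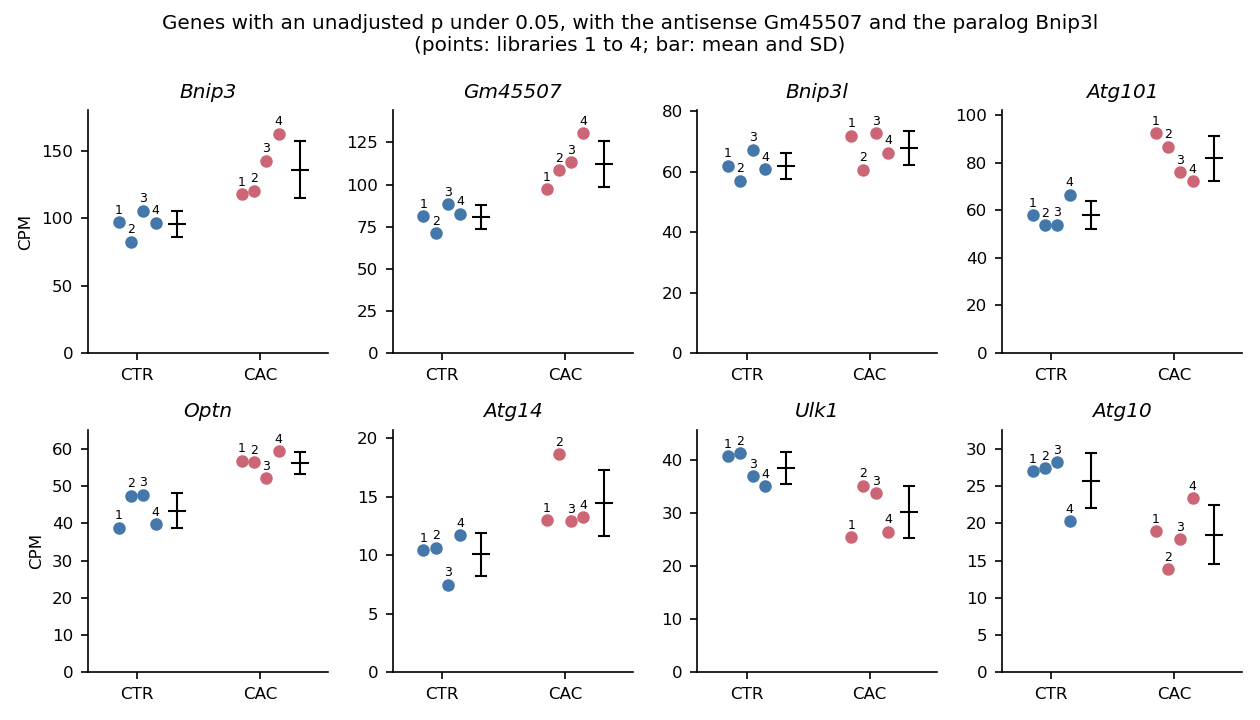
CPM in each of the 8 libraries for the 6 members with an unadjusted p under 0.05, with the antisense gene Gm45507 and the paralog Bnip3l beside Bnip3; bars give the mean and SD of 4 libraries a group and each vertical axis starts at 0. The CAC points of Bnip3, Gm45507, Atg101, Optn and Atg14 lie above all CTR points, and those of Bnip3l, Ulk1 and Atg10 reach into the CTR range.

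Markers of several cell types differed between the groups. A sample of whole BAT cannot tell fewer cells of a type from less RNA per cell, and the summed CPM of 10 brown adipocyte markers was 16107 to 17933 in CTR and 15646 to 17983 in CAC. Of that list, dominated by Ucp1, Cidea and Fabp4, 3 of 10 had an unadjusted edgeR p under 0.05, beside 12.9% of all tested genes. Ppargc1a, a coactivator of mitochondrial biogenesis, was called higher in CAC at a log2 fold change of 0.73 (adjusted p = 0.0201), Plin1 and Cox7a1 stood at -0.27 and -0.22 with all CAC libraries below all CTR libraries, Dio2 was at 0.69 (adjusted p = 0.408) and Ucp1 at 0.03. The 10 skeletal muscle markers were all above 0 and summed to 1206 to 2953 CPM in CTR and 2630 to 4873 CPM in CAC. For the 6 tested of 9 erythroid markers, again all above 0, the whole list summed to 6180 to 19269 CPM in CTR and 14637 to 44327 CPM in CAC. The macrophage list went from 220 to 248 CPM in CTR to 310 to 428 CPM in CAC, and the neutrophil list from 6.48 to 6.93 CPM to 166 to 434 CPM. Nearly all of the neutrophil sum in CAC was S100a8 and S100a9 (means of 174.7 and 73.5 CPM of 267.3 CPM), which are not limited to neutrophils. All 3 tested markers of that list were called higher in CAC by edgeR, the third being Retnlg at a log2 fold change of 3.40 (adjusted p = 0.0155; 0.360 to 2.08 CPM in CTR and 4.79 to 19.5 CPM in CAC). Among the markers too low to test, at no more than 9 counts a library, Ngp, Mmp8 and Cxcr2 were higher in all CAC libraries than in any CTR library. Mmp8 had at most 4 counts, too few to read its separation, and the groups overlapped for Csf3r and Ltf. Camp and Ly6g were at 0 in all CTR and 2 of 4 CAC libraries, and Cxcr2 was at 0 in CTR and at no more than 2.66 CPM in CAC. With the muscle marker level as a covariate, chosen after seeing the data, the log2 fold change of Bnip3 was 0.40 (edgeR adjusted p = 0.516) and that of Atg101 was 0.74 (adjusted p = 0.0964). The erythroid marker level as a covariate, added in the same way, gave 0.45 for Bnip3 (adjusted p = 0.575) and 0.61 for Atg101 (adjusted p = 0.421). The unadjusted edgeR p of Bnip3 was 0.0437 with the muscle and 0.0424 with the erythroid marker level, on wide intervals of 0.01 to 0.79 and 0.02 to 0.89. In the same pair of fits Optn stood at 0.22 and 0.27, short of an unadjusted p of 0.05 in both, Atg14 at 0.71 and 1.07, Atg10 at -0.66 and -0.81, and Ulk1 at -0.49 and -0.27, and none of these 4 was called. These fits called 21 and 11 genes in all. Because the muscle and erythroid markers were themselves higher in CAC, these fits cannot tell the part of these cells from the difference between the groups. The part of these cells in the member values was not tested.

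**Figure D4:**
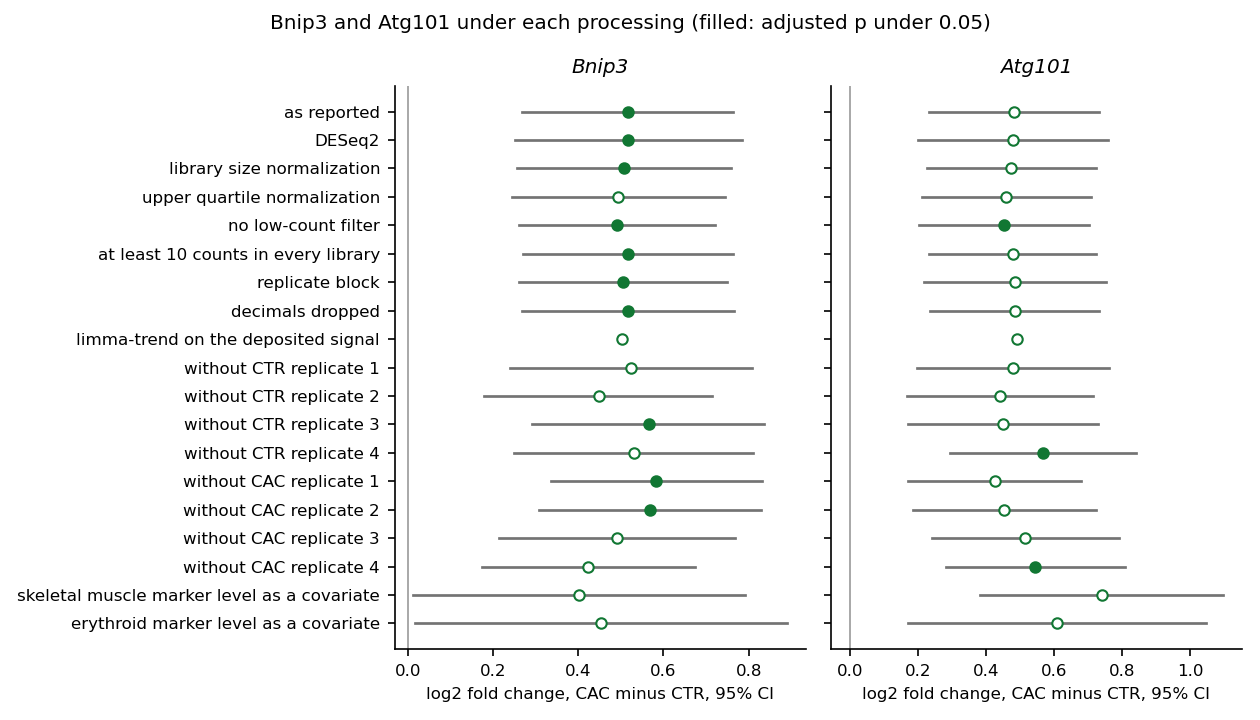
Log2 fold change of Bnip3 and of Atg101 (CAC minus CTR) with 95% confidence intervals as reported and under each other processing; filled points have an adjusted p under 0.05, and limma-trend is drawn without an interval. Every value is above 0, from 0.40 to 0.58 for Bnip3 and from 0.43 to 0.74 for Atg101, and 9 of the 18 alternatives keep the Bnip3 call.

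Upstream sequence is shown for the 3 members with the smallest p, and for the only member whose window holds the CLEAR core. RefSeq promoter windows (GRCm38.p6, 250 bases before to 50 after each start) were at hand for 33 of the 40 members. The RefSeq starts differ from the ends of the gene positions given above, so the Bnip3 and Atg101 stretches below run a short way into those positions. Searched on both strands, the E-box CACGTG, which MiT factors such as TFEB and many other factors bind, was in 5 of 33 windows (15.2%, beside 8.09% of all genes with a window) and the longer CLEAR core TCACGTGA of TFEB in that of Atg3 alone (3.03% beside 1.12%). The core of the hypoxia response element, ACGTG, which lies inside both of these, was in 12 of 33 (36.4% beside 21.8%), and the FoxO element GTAAACA in 0 of 33 (beside 4.05%). Capitals below mark these letters, and no other base carries a mark. The Bnip3 window holds CACGTG at positions -108 to -103, where -1 is the base before the start, and the Atg101 window holds ACGTG read in the direction of transcription at -172 to -168. The Optn window holds none of the 4. The Atg3 stretch, which stops at -51, holds an E-box at -94 to -89 and the CLEAR core at -72 to -65. A match describes the letters only.

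Bnip3, chr7:138909507-138909756, minus strand: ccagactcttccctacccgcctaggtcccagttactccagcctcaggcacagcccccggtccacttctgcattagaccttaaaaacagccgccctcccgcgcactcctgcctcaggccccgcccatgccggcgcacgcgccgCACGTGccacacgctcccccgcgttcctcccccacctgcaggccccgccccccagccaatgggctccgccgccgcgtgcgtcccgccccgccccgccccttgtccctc

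Atg101, chr15:101284051-101284300, plus strand: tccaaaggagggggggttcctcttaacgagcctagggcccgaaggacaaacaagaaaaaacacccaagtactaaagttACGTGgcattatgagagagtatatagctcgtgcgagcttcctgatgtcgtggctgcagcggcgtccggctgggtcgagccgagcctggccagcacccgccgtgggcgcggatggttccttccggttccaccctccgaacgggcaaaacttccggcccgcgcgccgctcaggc

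Optn, chr2:5064118-5064367, minus strand: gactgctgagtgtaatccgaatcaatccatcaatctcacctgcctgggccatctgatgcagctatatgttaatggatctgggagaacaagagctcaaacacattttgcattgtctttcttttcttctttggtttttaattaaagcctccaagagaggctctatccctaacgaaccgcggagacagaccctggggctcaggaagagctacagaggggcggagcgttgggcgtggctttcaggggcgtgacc

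Atg3, chr16:45158579-45158778, plus strand: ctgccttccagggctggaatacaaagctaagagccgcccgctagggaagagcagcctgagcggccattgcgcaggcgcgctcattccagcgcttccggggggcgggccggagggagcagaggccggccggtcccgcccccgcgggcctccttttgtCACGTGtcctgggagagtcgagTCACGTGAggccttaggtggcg

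TFEB and TFE3 are the transcription factors that drive lysosomal and autophagy genes, and Depp1 is a FoxO-induced gene linked to autophagy. Tfeb was at 10.4, 7.99, 11.6 and 8.82 CPM in CTR libraries 1 to 4 and at 8.11, 11.7, 11.4 and 8.02 CPM in CAC libraries 1 to 4. The groups covered the same range, with a log2 fold change of 0.04 (SE 0.22, interval -0.42 to 0.51, edgeR adjusted p = 0.960). Tfe3 stood at 0.20 (interval -0.29 to 0.68). Depp1 had the largest log2 fold change of the members, 0.63, and the widest interval, -1.05 to 2.31. Its 4 CTR libraries were at 13.3, 12.2, 13.3 and 40.6 CPM and its 4 CAC libraries at 56.2, 22.9, 9.08 and 44.6 CPM. CTR library 4 was above 2 CAC libraries, and CAC library 3 was the lowest of all, so the 4 libraries a group left the direction unresolved (SE 0.69, edgeR adjusted p = 0.774). Leaving out a library moved the Depp1 value to 1.32 (CTR replicate 4), 0.99 (CAC replicate 3), 0.41 (CAC replicate 4) or 0.28 (CAC replicate 1), and to 0.43 to 0.75 for the other 4. It was below the Bnip3 value of the same fit in 5 of the 8 omissions (all but CTR replicate 4 and CAC replicates 2 and 3). The muscle and erythroid marker covariates moved it to 2.15 (unadjusted edgeR p under 0.05, not called) and 1.35.

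**Figure D5:**
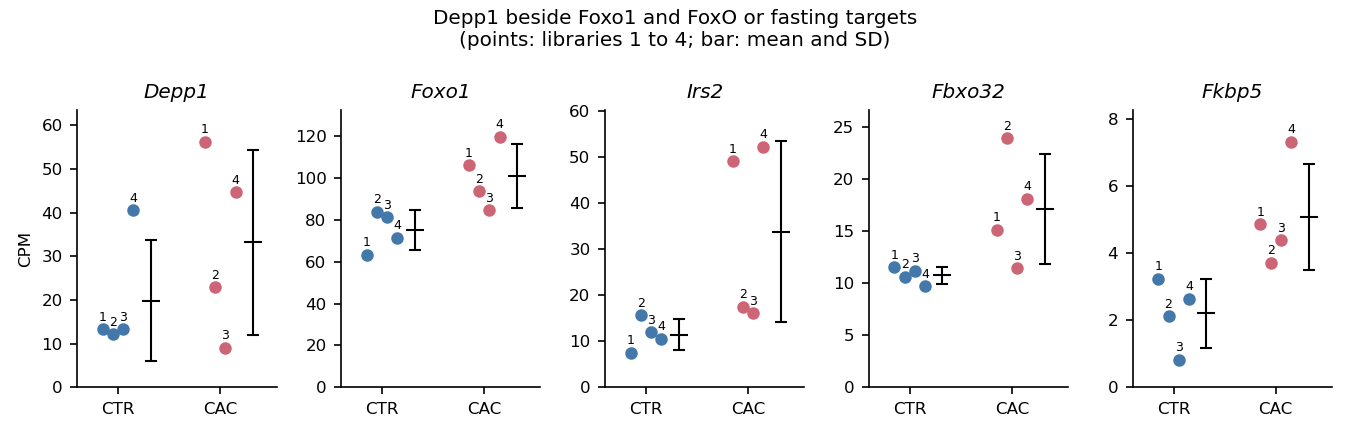
CPM of Depp1, of Foxo1 and of the FoxO or fasting targets Irs2, Fbxo32 and Fkbp5 in each of the 8 libraries, with the mean and SD of 4 libraries a group; each vertical axis starts at 0. Depp1 spans 9.08 to 56.2 CPM within CAC alone, and CAC libraries 1 and 4, its highest, are also the highest for Foxo1, Irs2 and Fkbp5 (2 to 21 counts), whereas the highest for Fbxo32 is CAC library 2 (23.9 CPM). Of the listed FoxO and fasting targets not drawn, Angptl4 and Pik3ip1 were also highest within CAC in libraries 1 and 4. Txnip, Pdk4, Cited2 and Trim63 were lowest within CAC in library 1, and Klf15 and Pnpla2 followed neither order. No link between these genes was tested.

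Other genes of the pathway, in lists written with earlier results of these data known, gave no adjusted p under 0.05 in any of 8 lists. Counts at an unadjusted edgeR p under 0.05 stand beside 12.9% of all tested genes, 7.01% above 0 and 5.93% below. FoxO1 drives autophagy genes in fasting, and Foxo1 had the smallest p of the listed transcription factors. It was at 63.3, 83.9, 81.3 and 71.4 CPM in CTR libraries 1 to 4 and at 106, 93.6, 84.7 and 120 CPM in CAC libraries 1 to 4. The groups were separate by less than 1 CPM, and the log2 fold change was 0.43 (SE 0.13, edgeR adjusted p = 0.112). Epas1, which encodes HIF-2α, stood at -0.28 (adjusted p = 0.277 by the same edgeR test). Of the 9 tested factors, 2 had an unadjusted p under 0.05 above 0 and 1 below, with a list median of 0.14.

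Among 10 tested FoxO and fasting targets, 3 (30%) had an unadjusted edgeR p under 0.05, beside 12.9% of all tested genes. All 3 were above 0, beside 7.01% of all tested genes. Fkbp5, a glucocorticoid-induced co-chaperone, stood at 1.16 (interval 0.40 to 1.92) and Fbxo32, which encodes the ubiquitin ligase atrogin-1, at 0.65 (interval 0.20 to 1.10). Their adjusted p were 0.148 and 0.168. Irs2, the third, was at 7.56 to 15.7 CPM in CTR and at 49.2, 17.6, 16.1 and 52.3 CPM in CAC libraries 1 to 4. The list's median was 0.16 and its range -0.39 to 1.53. Of the 10 tested hypoxia-inducible targets, 2 had such a p, both above 0: Egln3, an oxygen-sensing prolyl hydroxylase, at 0.53 and P4ha1, a collagen prolyl hydroxylase, at 0.65 (edgeR adjusted p of 0.253 and 0.265), with a list median of 0.12. The FoxO and the hypoxia lists are named here beside Bnip3 because both kinds of factor are known to act on it, and no link between them was tested.

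Of 20 tested further core autophagy and fusion genes, 2 were above 0 and 3 below with an unadjusted edgeR p under 0.05, and the median was -0.14. Atg9b, a relative of Atg9a, stood at -0.62 (adjusted p = 0.192) and Sh3glb1, which encodes the membrane-bending BIF-1, at -0.26 (adjusted p = 0.225). Sh3glb1 was at 316 to 340 CPM in CTR and 247 to 301 CPM in CAC, without overlap. The summed CPM of the whole list was 758.2 to 823.4 in CTR and 661.5 to 716.3 in CAC, also without overlap. Of the mean sums, 777.7 CPM in CTR and 699.0 CPM in CAC, Sh3glb1 alone held 327.1 and 273.4 CPM. The difference between the sums was not tested. The 16 tested further mitophagy genes had a median of 0.00, and Phb2, a receptor of the inner mitochondrial membrane, stood at -0.24 (adjusted p = 0.274). Among 9 tested further selective receptors, Ncoa4, the receptor that delivers ferritin to the lysosome, was the only such gene, at -0.51 (adjusted p = 0.215), and was at 16.2 to 19.9 CPM in CTR and 10.1 to 15.7 CPM in CAC. Tollip stood next at -0.53 (edgeR adjusted p = 0.393).

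Of 19 tested mTORC1 and AMPK genes, which set the activity of ULK1, Prkab1, a regulatory subunit of AMPK, was the only gene with an unadjusted p under 0.05, at -0.55 (edgeR adjusted p = 0.332), followed by Tsc2, an inhibitor of mTORC1, at -0.30 (adjusted p = 0.418). The list's median was -0.03. Of the lysosome genes, 13 of 16 were above 0, with a median of 0.13 and no call. Hexa, a subunit of β-hexosaminidase, stood at 0.40 (edgeR adjusted p = 0.262) and Lamp1, a major protein of the lysosomal membrane, at 0.20 (adjusted p = 0.402). The summed CPM of the lysosome list was 2811 to 3087 in CTR and 2921 to 3657 in CAC, and macrophages, whose markers were higher in CAC as given above, also carry these genes, a part that was not tested.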

How the data were processed

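Single-end reads were made from BAT RNA, 4 libraries a group, and groups follow the titles. The authors checked reads with FastQC 0.11.9, aligned them to mm10 with HISAT2 2.2.1 and counted them with featureCounts. The deposited matrix holds expected counts, reads per gene with fractions where reads were shared. A further deposited table holds a signal, the counts divided by the authors' DESeq2 size factors, and was used for limma alone. Rounded counts entered edgeR 4.0.16 (R 4.3.3): filterByExpr, TMM scaling and the robust quasi-likelihood test between CAC and CTR without covariates, with Benjamini-Hochberg adjustment for 9876 genes and a threshold of 0.05. The fit was tested on simulated data. CPM use TMM-scaled library sizes. Libraries held 1823167 to 4827956 counts, and a floor of 3 counts, for counting error only, stood at 0.661 to 1.62 CPM. Positions and the shared 75-base stretches come from GENCODE M21, matched by Ensembl ID without version (91.4% of IDs and all 40 members).

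Members and lists were chosen with earlier results of these data known. Values in all libraries are given for members with an unadjusted p under 0.05 or groups that do not overlap, and for the LC3 and GABARAP modifiers, Sqstm1, Pink1 and Tfeb; from each pathway list the 2 genes with the smallest p are named, except for 1 gene that is not reported here. The named brown adipocyte and neutrophil markers, Bnip3l, Depp1 and Irs2, and single values of Atg2a, Calcoco1 and Fundc1, were added after their values were seen. Alternatives were DESeq2 1.42.0, other normalizations and filters, the replicate block, counts with decimals dropped, limma-trend (limma 3.58.1) on log2(signal + 1), and each library left out. Figures were drawn with matplotlib 3.10.9. The authors' proteomic, qPCR and secretome measurements were not analysed here.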

Additional observations from a re-analysis of the deposited data

Results flagged for a closer look

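In groups of 4 libraries, 12 of 110 group values (40 members and 15 summed lists, 2 groups each) had a highest or lowest library whose distance to the nearest of the others exceeded Dixon's critical share of the range. Chance gives about 1 in 20, that is 5.5 here. Depp1 in CTR replicate 4 was at 40.6 CPM, against 12.2 to 13.3 CPM in the other 3 CTR libraries, and the summed brown adipocyte markers of the same library were at 17933 CPM, against 16107 to 16219. Atg9a was also apart in CTR replicate 4 (5.73 CPM against 3.20 to 3.60), as was Atg10 (20.3 CPM against 27.0 to 28.2), so that this library stood out in 3 members. Pik3c3 in CTR replicate 1 had 3.60 CPM where the remaining libraries had 7.28 to 7.47, and Atg16l1 at 11.6 CPM in CTR replicate 3, against 18.9 to 19.8. Sqstm1 in CTR replicate 2 had 116.7 CPM, below the 138.2 to 141.6 of the rest, and Wipi1 at 43.9 CPM there, against 39.6 to 40.2. In CAC, Atg14 was at 18.6 CPM in replicate 2, against 12.9 to 13.2, and Becn1 at 19.5 CPM in replicate 1, against 15.9 to 16.4. The mTORC1 and AMPK list summed to 1965 CPM in CTR replicate 3, against 1671 to 1703, and the FoxO and fasting list to 2323 CPM in CAC replicate 3, against 2570 to 2619. Their causes were not tested.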

How the results depend on the processing

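The number of all genes called moved from 92 to 351 with no low-count filter, to 140 with the replicate block, to 21 with the muscle marker covariate and to 11 with the erythroid marker covariate, and ran from 42 to 135 when each library was left out. Of the members, 1 was called as reported, 2 with no low-count filter or at an adjusted p under 0.10 (Bnip3 and Atg101), 0 with upper quartile normalization, with limma-trend and with either marker covariate, and 0 to 1 without each library. The 1 member called without CTR replicate 4 or CAC replicate 4 was Atg101 and not Bnip3. The replicate block changed no member's call (Bnip3 0.51, edgeR adjusted p = 0.0333). The deviations of same-numbered libraries had correlations of -0.023 to 0.036 over genes, beside -0.053 to 0.036 for libraries of unlike number. Such small values cannot show whether the numbers pair the mice by cage or date, and the labels name no pairing.

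Of the members with an unadjusted p under 0.05, 4 were above 0 as reported and 3 to 5 without each library, with 6 under the muscle and 3 under the erythroid marker covariate, and 2 were below 0, against 1 with the erythroid marker covariate and 1 to 2 without each library. The 6 members kept their sign under all 18 alternatives, while 0 to 8 of the other members changed sign under the alternatives without a covariate and 11 under either covariate. The 6 were picked by their p in these same libraries and many of the others lay near 0, so this contrast follows from the choice and adds no support. The members' median log2 fold change was 0.11 with the muscle marker covariate, and 0.04 to 0.09 without each library. The causes of these shifts were not tested. With at least 10 counts in every library, Ambra1 and Atg9a dropped out. The permutation test meant for members under the low-count filter was not needed, since all passed it. Depth limits Pik3c3, Ambra1, Atg9a, Atg2b and Fundc1 most, at 8.5 to 39 counts a library.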
